A study of Mus musculus with 7 samples.

Results

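Fibronectin, 4 integrin chains of its receptors and of the vitronectin receptors, the focal adhesion kinase, its relative Pyk2 and 3 proteins of the adhesion scaffold were followed in tumor-associated macrophages with and without Dicer1. The 10 genes were Fn1, Itga5, Itgav, Itgb1, Itgb5, Ptk2, Ptk2b, Pxn, Tln1 and Vcl, out of 24084 genes listed in at least 1 library. They were found by matching Ensembl gene IDs to these symbols, and all 10 passed the filter on low counts. The set was picked because Ptk2 and Fn1 were lower in the Dicer1-deleted libraries. The group difference of these genes is therefore given as a description, and it supports no statement by itself.

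The Dicer1-deleted group held 3 libraries of macrophages from D-/- mice, which carry a lysozyme M-driven Cre recombinase (LysM-Cre) and floxed Dicer1 alleles. The control group held 4 libraries from D+/+ mice, with the same Cre and intact Dicer1. Because the lysozyme M locus drives Cre, deletion is limited to cells that use it. Cre was homozygous in both groups, so controls carry the same Cre insertion. All mice bore Lewis lung carcinoma, a mouse lung cancer line, under the skin, and F4/80-positive cells were sorted from the established tumors. Whether the libraries came from separate mice is not stated in the labels, so the p-values measure only how these libraries vary, which may be technical.

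Fibronectin is a large glycoprotein of the extracellular matrix, secreted by fibroblasts, hepatocytes and many macrophages. Cells bind it through integrins, pairs of an alpha and a beta chain. Inside the cell the beta chain is held by talin and vinculin, which tie it to actin, and the clustered integrins switch on focal adhesion kinase and Src, with paxillin as a docking scaffold. In macrophages and other blood cells the related kinase Pyk2 is the usual member of this kinase family, and both kinases are known to act in adhesion and migration.

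The Dicer1 transcript itself was lower in Dicer1-deleted samples, though counted over the whole gene and not over the floxed part alone. Dicer1, the ribonuclease that cuts microRNA precursors, stood at 7.85, 6.86 and 7.86 CPM (TMM-scaled counts-per-million) in Dicer1-deleted samples, against 15.7, 15.8, 18.6 and 17.1 CPM in the controls, with no overlap (log2 fold change -1.16 ± 0.23, SE, edgeR adjusted p = 0.150). Between 42974524 and 51152370 reads were placed uniquely per library. Macrophage markers were abundant in both groups, with Csf1r at 493.5 to 789 CPM in Dicer1-deleted samples, against 553 to 809 CPM in control samples. Lyz2, whose locus carries the Cre in both groups, was at 50.7 to 67.2 CPM in Dicer1-deleted samples, against 103 to 212 CPM in control samples (edgeR adjusted p = 0.235). The libraries fell into 2 kinds by how well long transcripts were covered. This long-gene coverage was the median log2 ratio, against the mean over the 7 libraries, of 2077 genes with transcripts of at least 5000 bases, less that of 2333 genes of 1000 to 2000 bases. It was 0.25, -0.44 and 0.30 in Dicer1-deleted replicates 1, 2 and 3, and -0.28, -0.40, 0.26 and 0.29 in control replicates 1 to 4. Dicer1-deleted replicate 2 and control replicates 1 and 2 thus stood apart from the other 4 libraries, in a split that crosses the genotypes.

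Levels of different genes were compared per length, as CPM per kilobase of the longest coding transcript. In control macrophages Fn1 stood first, at 100.1 ± 31.3 (SD, n = 4), ahead of Itgb1 at 65.0 ± 7.10, Tln1 at 26.3 ± 2.19 and Itga5 at 20.8 ± 7.28. Itgb5, Itgav and Ptk2b came next, at 16.5 ± 4.23, 15.2 ± 5.36 and 13.3 ± 1.53, and these 3 did not differ beyond their spread. Pxn followed at 7.37 ± 1.62 and Vcl at 3.52 ± 2.57, and Ptk2 stood last at 1.52 ± 0.301 CPM per kilobase. In Dicer1-deleted macrophages the first place went to Itgb1, at 57.9 ± 11.9 CPM per kilobase (SD, n = 3), and Fn1 was sixth at 23.2 ± 7.44. There Tln1 stood at 28.4 ± 2.23, and Fn1 lay within the spread of Itga5 (24.3 ± 10.9), Itgb5 (24.0 ± 6.08) and Ptk2b (23.6 ± 4.59). Ptk2 stayed last, at 0.213 ± 0.0133 CPM per kilobase. With the RPKM values the authors deposited, Fn1 was again first and Ptk2 last in control libraries, and Vcl and Pxn changed places. In Dicer1-deleted libraries Itgb1 was again first on that scale, and Fn1 ranked 4 at 22.4 ± 8.99 RPKM, close to Itga5 (23.7 ± 12.5), Tln1 (23.1 ± 2.22) and Itgb5 (21.95 ± 2.95). By RPKM Ptk2b, Pxn and Itgav stood at 7.16, 3.32 and 9.99 RPKM in controls, well below their values per transcript length.

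**Figure D1:**
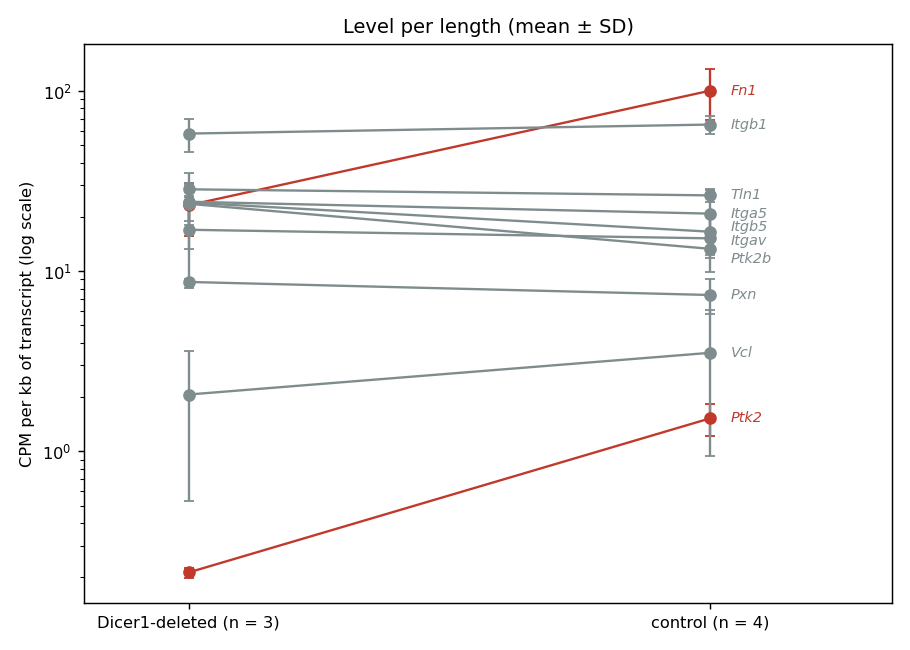
Level per length of the 10 genes (CPM per kilobase of transcript, log scale, mean ± SD) in Dicer1-deleted (n = 3) and control (n = 4) libraries, 1 line per gene, Fn1 and Ptk2 in red. Fn1 is at 23.2 in Dicer1-deleted and 100.1 in control libraries, and Ptk2 at 0.213 in Dicer1-deleted and 1.52 in control libraries, while the other lines are flatter.

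The ligand of the set was lower in all Dicer1-deleted libraries than in any control. Fn1 had 167, 148 and 263 CPM in the Dicer1-deleted samples and 705, 581, 1184 and 858 CPM in the controls. The groups did not overlap, and within each group the library order was the same as for Itga5 and Itgav. The means were 193 ± 61.9 CPM in Dicer1-deleted (SD, n = 3) and 832 ± 260.3 CPM in control libraries (SD, n = 4), a 4.32-fold difference (log2 fold change -2.11 ± 0.36, SE, edgeR). Fn1 lies on chromosome 1 at 71585520 to 71653200, minus strand, of the GRCm38 reference, with 46 exons in its longest coding transcript. In these bulk libraries fewer cells of a type and less RNA per cell cannot be told apart.

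Neither tested neighbor of Fn1 passed. Apol7d, an antisense transcript that overlaps Fn1 and cannot be separated by strand in this kit, had 0.0508 to 0.457 CPM in Dicer1-deleted samples, against 0.269 to 0.419 CPM in control samples. Atic, an enzyme of purine synthesis 5.9 kb away, averaged 39.7 ± 5.34 CPM in Dicer1-deleted samples and 56.1 ± 10.6 CPM in control samples (log2 fold change -0.50 ± 0.25, SE, edgeR adjusted p = 0.712). Its groups did not overlap, with 34.55 to 45.2 CPM in Dicer1-deleted samples and 46.7 to 70.6 CPM in controls. The direction was that of Fn1, though 45.2 and 46.7 CPM lie close together. Of all genes tested, 9.31% did not overlap. Uniquely placed reads made up 99.15% to 99.83% of the Fn1 reads.

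Markers of fibroblasts, a rich source of fibronectin, were low and overlapped between the groups. The 11 markers summed to 22.9 to 30.1 CPM in Dicer1-deleted samples, against 17.4 to 36.1 CPM in control samples. Col1a1 was below 1 CPM in all 7 libraries, and Col1a2 and Mfap5 were at 0 in some. The 6 listed markers of carcinoma or epithelium summed to 5.79 to 9.09 CPM in Dicer1-deleted samples, against 2.11 to 14.1 CPM in control samples. Most of that sum came from Cdh1, and Epcam was at 0 in 5 libraries. Krt7 and Krt18 were low and lay lower in every Dicer1-deleted library, while Krt8 and Cdh1 overlapped. Krt7 had 0 to 0.203 CPM in Dicer1-deleted samples and 0.359 to 1.425 CPM in controls. Krt18 had 0.102 to 0.171 CPM in Dicer1-deleted samples and 0.29 to 0.62 CPM in controls. Of the 4 tested markers 2 did not overlap (50%, against 9.31% of all genes tested). Sums of 4 other lists did not overlap between the groups. Endothelial markers summed to 43.5 to 78.3 CPM in Dicer1-deleted samples, against 8.80 to 24.7 CPM in control samples, largely through Pecam1 (7.17 to 15.96 CPM in Dicer1-deleted samples and 2.41 to 12.8 CPM in controls without it), with Tek, Emcn and Tie1 each at 0 in several libraries. All 5 tested endothelial markers had a positive log2 fold change (100%, against 52.6% of all genes tested), and 1 did not overlap (20%, against 9.31%). Neutrophil markers summed to 132.5 to 211 CPM in Dicer1-deleted samples and 60.7 to 84.0 CPM in controls, mostly Mmp8. Without Mmp8 the sums were 26.8 to 63.2 CPM in Dicer1-deleted samples and 21.5 to 29.6 CPM in controls and overlapped, and Ly6g, Ltf and Ngp were below 1 CPM everywhere. Csf3r was also higher in every Dicer1-deleted library, at 22.8 to 32.0 CPM against 11.1 to 22.1 CPM in controls. S100a8 and S100a9 overlapped between the groups and were highest in Dicer1-deleted replicate 2, at 20.5 and 15.2 CPM. Of the 5 tested neutrophil markers 2 did not overlap (40%, against 9.31% of all genes tested), and all 5 had a positive log2 fold change (100%, against 52.6%). Mural and muscle markers summed to 16.2 to 23.2 CPM in Dicer1-deleted samples and 26.3 to 30.8 CPM in controls, a difference carried mostly by Cspg4. Without Cspg4 the sums overlapped, at 9.48 to 22.2 CPM in Dicer1-deleted samples and 6.33 to 12.9 CPM in controls. Tagln was also lower in every Dicer1-deleted library, at 0.581 to 1.28 CPM against 1.41 to 2.95 CPM in controls. Acta2 went the other way, averaging 12.2 CPM in Dicer1-deleted samples and 6.3 CPM in controls, with overlap. Markers of peritoneal-type resident macrophages, mostly Folr2, summed to 145 to 208 CPM in Dicer1-deleted samples, against 280.1 to 1059 CPM in control samples. Without Folr2 the sums overlapped, at 18.2 to 47.4 CPM in Dicer1-deleted samples and 16.4 to 115 CPM in controls. Lyve1, Timd4 and Rarb were also lower in every Dicer1-deleted library, and Icam2 was higher. Gata6, also on this list, was at most 0.0912 CPM in any library and was not tested. Lyve1 had 1.37 to 5.98 CPM in Dicer1-deleted samples and 9.53 to 101.6 CPM in controls. Icam2 had 15.6 to 45.7 CPM in Dicer1-deleted samples and 4.92 to 13.96 CPM in controls. All 5 tested genes of this list did not overlap (100%, against 9.31% of all genes tested). The part of these cells in the lower Fn1 and Ptk2 levels was not tested. Classical monocyte markers overlapped between the groups, at 575 to 873 CPM in Dicer1-deleted samples and 478 to 1797 CPM in controls. They were highest in control replicate 3, which also had the most Fn1. In control replicate 1 the sum was 908 CPM and Fn1 was at 705 CPM. In control replicate 4 the sum was 517 CPM and Fn1 was at 858 CPM. The part of classical monocytes in the Fn1 levels was not tested.

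None of the 4 receptor chains passed the test. Itga5 pairs with Itgb1 to form the classical fibronectin receptor. It had 88.6, 69.7 and 160.5 CPM in Dicer1-deleted libraries and 77.9, 53.8, 126 and 107 CPM in controls, on chromosome 15 at 103344286 to 103366763. The groups overlapped, and the highest value was in Dicer1-deleted replicate 3. Its log2 fold change of 0.22 ± 0.38 (SE) did not pass (edgeR adjusted p = 0.996), and 2 SE to each side reached from -0.54 to 0.98. Itgav, the alpha chain of the vitronectin receptors, had 133, 50.9 and 175 CPM in Dicer1-deleted libraries and 96.6, 59.2, 145 and 127.5 CPM in controls, on chromosome 2 at 83724397 to 83806916. Values ranged widely in both groups and overlapped, with a log2 fold change of 0.16 ± 0.44 (SE) and an interval of 2 SE from -0.73 to 1.05. Itgb1, the beta chain shared by most fibronectin and collagen receptors, had 236, 169.9 and 256 CPM in Dicer1-deleted libraries and 219, 232.5, 262 and 278 CPM in controls, on chromosome 8 at 128685654 to 128733200. It was lowest in Dicer1-deleted replicate 2, the groups overlapped, and the log2 fold change was -0.17 ± 0.26 (SE), with an interval of 2 SE from -0.68 to 0.35.

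Itgb5 was higher in all Dicer1-deleted libraries than in the controls. This chain pairs with Itgav into a receptor for vitronectin that macrophages also use in the uptake of dying cells. It had 67.5, 101.8 and 67.0 CPM in Dicer1-deleted libraries and 60.5, 64.0, 33.7 and 58.9 CPM in controls, on chromosome 16 at 33829665 to 33949338. The groups did not overlap, though 67.0 and 64.0 CPM lie close together. Its log2 fold change of 0.54 ± 0.30 (SE) did not pass (edgeR adjusted p = 0.785).

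The ratio of Fn1 to Itga5 varied little among the libraries of a group, and that of Fn1 to Itgb1 varied more. Per kilobase, Fn1 stood at 0.992, 1.12 and 0.865 times Itga5 in the Dicer1-deleted samples and at 4.77, 5.69, 4.95 and 4.21 times Itga5 in the controls. Against Itgb1 the ratio was 0.323, 0.40 and 0.471 in Dicer1-deleted and 1.48, 1.15, 2.07 and 1.42 in control libraries. These ratios were chosen after their values were seen and carry no test. Itga5, Itgav and Fn1 had the same order of libraries within each group. Vcl shared it among the controls and Itgb1 among the Dicer1-deleted libraries, so the order is not particular to Itga5.

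The 2 kinases of the family differed in opposite directions. Ptk2 encodes focal adhesion kinase, and its transcript was low in all libraries. It had 0.955, 0.966 and 1.07 CPM in the Dicer1-deleted samples and 5.07, 7.54, 8.28 and 7.61 CPM in the controls. The groups lay far apart, and the 3 Dicer1-deleted libraries were nearly equal. The means were 0.996 ± 0.0621 CPM in Dicer1-deleted (SD, n = 3) and 7.13 ± 1.41 CPM in control libraries (SD, n = 4), a 7.16-fold difference (log2 fold change -2.84 ± 0.33, SE, edgeR). The counts behind it were 23, 19 and 25 read pairs in the Dicer1-deleted libraries, against 121, 168, 227 and 167 pairs in the controls. At least 99.84% of the Ptk2 reads were uniquely placed.

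Ptk2b, which encodes Pyk2, was the more abundant kinase in every library. It had 77.3, 114 and 94.2 CPM in Dicer1-deleted libraries and 55.1, 52.5, 46.0 and 60.9 CPM in controls, on chromosome 14 at 66153257 to 66281052. Every Dicer1-deleted library lay above every control, and the highest was Dicer1-deleted replicate 2. The log2 fold change of 0.83 ± 0.24 (SE) did not pass in edgeR (adjusted p = 0.313) and passed in DESeq2 (0.86 ± 0.26, adjusted p = 0.0412). Per kilobase, Ptk2b stood at 93.9, 137 and 102 times Ptk2 in the Dicer1-deleted samples and at 12.6, 8.06, 6.44 and 9.27 times Ptk2 in the controls.

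**Figure D2:**
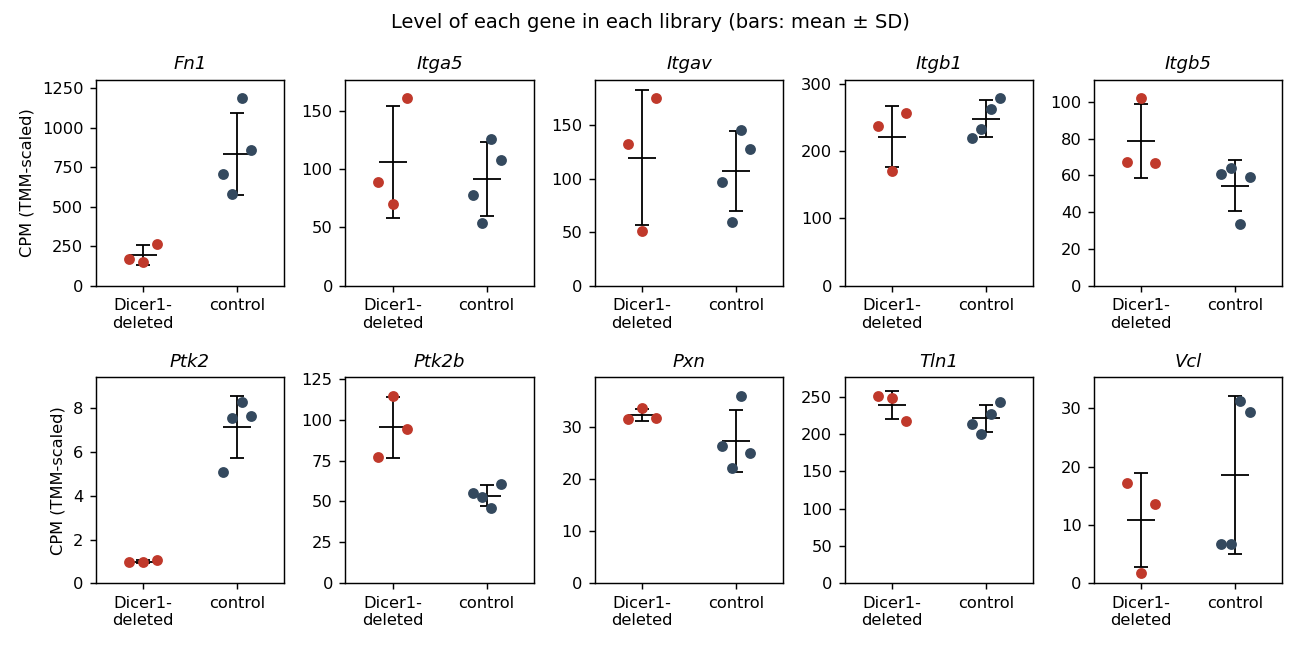
TMM-scaled CPM of the 10 genes in each library, Dicer1-deleted (red, n = 3) left of control (dark, n = 4), with bars for mean ± SD and a linear axis from 0 in each panel. Fn1 and Ptk2 lie lower and Ptk2b and Itgb5 higher in all Dicer1-deleted libraries, while the other 6 genes overlap (9.31% of all genes tested did not overlap).

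None of the 5 tested neighbors of Ptk2 passed. Ptk2 spans 218 kb of chromosome 15, at 73205102 to 73423280 on the minus strand of GRCm38, with 34 exons in its longest coding transcript. The annotation also places Mir151, a microRNA gene on the same strand, inside it. Mir151 was at 0 CPM in 6 libraries and 0.0456 CPM in control replicate 4, which in libraries of this kind says nothing of the mature microRNA. Ago2, which encodes the main slicing Argonaute protein and lies 20.2 kb from Ptk2, had 28.7, 25.97 and 31.6 CPM in Dicer1-deleted libraries and 18.1, 14.7, 25.2 and 31.0 CPM in controls (log2 fold change 0.37 ± 0.30, SE). Farther out, Slc45a4 was at 0.97 ± 0.37, Dennd3 at 0.71 ± 0.80, Trappc9 at 0.16 ± 0.28 and Chrac1 at -0.16 ± 0.33 (log2 fold change ± SE). Their edgeR adjusted p-values were 0.502 to 0.996.

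The 3′ UTR of Ptk2 holds 2 matches to the seed of miR-223, an abundant microRNA of myeloid cells, and that of Fn1 holds 1 to miR-200b. They are shown because Dicer1 cuts microRNAs to their mature form and Ptk2 and Fn1 define the set. A seed is bases 2 to 8 of the microRNA, and a match is its reverse complement in the 3′ UTR, in capitals below. The mature sequence is from RefSeq (GRCm38.p6) and the sites are from GENCODE transcripts, at chr15:73205471-73205495 and chr15:73205310-73205334 on the minus strand of GRCm38. The Fn1 site is at chr1:71585671-71585695 on the minus strand, and miR-200b is a microRNA of epithelia.
miR-223-3p: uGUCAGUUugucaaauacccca
Ptk2 site 1: gcgaactatctgtagAACTGACaaa
Ptk2 site 2: acagccactggagctAACTGACctt
miR-200b-3p: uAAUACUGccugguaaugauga
Fn1 site: tttatcaatttttccCAGTATTttt

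Matches to miR-223 were present in 9.2% of the 12059 tested genes with a 3′ UTR, and 1.02% held at least 2, as Ptk2 did. The miR-200b match was found in 15.1% of them. The share of genes with at least 2 matches was counted for miR-223 alone, and not for the other microRNAs searched. Vcl also held 2 matches to the same microRNA, miR-29a. Of 14 microRNAs searched, 8 of the 10 genes held a match to at least 1, against 69.2% of the genes with a 3′ UTR, with 20 matches in all, and Tln1 and Itgb5 held none. Itga5, Itgb1 and Vcl held the miR-29a match TGGTGCT, present in 15.3% of the genes, and miR-29 is known for targeting matrix genes. Its mature sequence and the Itga5 site are shown because Itga5 is the fibronectin receptor's alpha chain, and the site is at chr15:103344752-103344776 on the minus strand.
miR-29a-3p: uAGCACCAucugaaaucgguua
Itga5 site: aacactaaccgtggaTGGTGCTgca
No gene of the set held a match to let-7a, miR-155, miR-146a or miR-24. These shares were not adjusted for UTR length, which was 946 bases in Ptk2 and 688 in Fn1 against a median of 1111. The matches are a description of sequence and show no binding.

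The scaffold genes overlapped between the groups. Tln1 encodes talin, which binds and activates integrin beta tails. It had 250.5, 248 and 217 CPM in Dicer1-deleted libraries and 214, 199.5, 227 and 243 CPM in controls, on chromosome 4 at 43531519 to 43562691. Creb3 overlaps it on the other strand, at 155 ± 6.19 CPM in Dicer1-deleted samples and 181 ± 33.3 CPM in controls. Tln1 was the steadiest gene of the set across all 7 libraries, with a log2 fold change of 0.11 ± 0.23 (SE) and an interval of 2 SE from -0.35 to 0.58. Pxn encodes paxillin, a docking protein for focal adhesion kinase. It had 31.4, 33.6 and 31.8 CPM in Dicer1-deleted libraries and 26.4, 22.04, 35.9 and 24.9 CPM in controls, on chromosome 5 at 115506676 to 115555987. Only control replicate 3 exceeded the Dicer1-deleted libraries, and the log2 fold change of 0.24 ± 0.25 (SE) did not pass (edgeR adjusted p = 0.996).

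Vcl, which encodes vinculin, the protein that reinforces the link to actin under force, was the most variable. It had 17.3, 1.78 and 13.6 CPM in Dicer1-deleted libraries and 6.83, 6.82, 31.2 and 29.3 CPM in controls, on chromosome 14 at 20929398 to 21033676. The highest value was 9.71 times the lowest within the Dicer1-deleted group and 4.57 times within the controls. The log2 fold change of -0.77 ± 0.78 (SE) did not pass (edgeR adjusted p = 0.996). Without Dicer1-deleted replicate 2 it was -0.27. Vcl also had the least certain counts, with 75.8% to 88.2% of its reads placed uniquely. It overlaps Ap3m1 on the other strand, which had 137, 29.9 and 141 CPM in Dicer1-deleted samples and 74.1, 66.7, 147 and 154 CPM in control samples.

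Across all genes the edgeR quasi-likelihood test called 4 of 16226 (0.0247%) at a Benjamini-Hochberg adjusted p of 0.05, and 0.0185% were called as lower in Dicer1-deleted libraries. Of the set, Ptk2 was the 1 gene called (adjusted p = 0.0378), and Fn1 was not (adjusted p = 0.111). The call of Ptk2 was lost when any 1 library was left out (adjusted p of 0.0588 to 0.225), with the L code as covariate (0.0875) and in limma-voom (0.09). At an unadjusted p under 0.05 the set held 3 genes, Ptk2, Fn1 and Ptk2b, against 8.01% of all genes. Values of the groups stood clear of each other for 4 of the 10 genes, against 9.31% of all genes tested. Of these 2 were lower, against 5.44% of all genes, and 2 were higher, against 3.86%. Nothing is read from these counts, since the set was chosen on this contrast. DESeq2 called 405 genes (2.5%), among them Ptk2, Fn1 and Ptk2b. With the trend on transcript length removed from each library, edgeR called 10 genes (0.0616%), among them Ptk2 (adjusted p = 0.0358) and Fn1 (adjusted p = 0.0435).

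**Figure D3:**
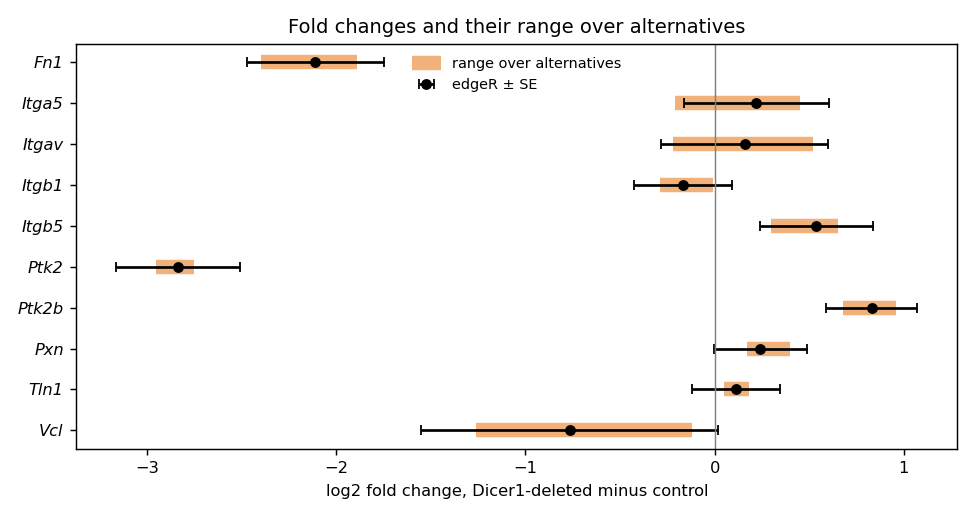
Log2 fold change, Dicer1-deleted minus control, of the 10 genes in edgeR (points, ± SE) with the range over the alternative analyses (orange bars). Ptk2 lies between -2.95 and -2.75 and Fn1 between -2.40 and -1.89 in all alternatives that gave a value, and the bars of Itga5 and Itgav cross 0. Ptk2 and Fn1 were picked for their falls in these same counts.

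Long-gene coverage moved with several of the genes and not with the genotype. Vcl, Itgav, Itga5 and Itgb1 were each higher in all 4 libraries with coverage above 0 than in all 3 with coverage below 0, as were 17.4% of all genes tested. For Itgav these ranges were 127.5 to 175 CPM and 50.9 to 96.6 CPM, and for Vcl 13.6 to 31.2 CPM and 1.78 to 6.83 CPM. Tln1, whose longest coding transcript has 8393 bases, did not separate in this way, with 217 to 250.5 CPM and 199.5 to 248 CPM. The part of coverage in the spread of these genes was not tested beyond the removal of the length trend.

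Values within the coverage split are given for Ptk2, Fn1 and Ptk2b as a description. Since their groups do not overlap over the 7 libraries, any split shows the same direction. With coverage above 0, Ptk2 averaged 1.01 CPM in the 2 Dicer1-deleted samples and 7.94 CPM in the 2 controls, and with coverage below 0 it was 0.966 CPM in 1 Dicer1-deleted library and averaged 6.31 CPM in 2 controls. Fn1 averaged 215 CPM in Dicer1-deleted samples and 1021 CPM in controls above 0, and was at 148 CPM in the Dicer1-deleted library and 643 CPM on average in controls below 0. Ptk2b averaged 85.8 CPM in Dicer1-deleted samples and 53.5 CPM in controls above 0, and was at 114 CPM in the Dicer1-deleted library and 53.8 CPM on average in controls below 0. The L code in the titles, whose meaning the labels do not give, also crossed the groups. Within L4, Fn1 averaged 206 CPM in 2 Dicer1-deleted libraries and was 581 CPM in 1 control. Within L5 it was 167 CPM in 1 Dicer1-deleted library and averaged 916 CPM in 3 controls. Ptk2 averaged 1.02 CPM in the Dicer1-deleted and was 7.54 CPM in the control library of L4, and was 0.955 CPM in the Dicer1-deleted library and averaged 6.99 CPM in the controls of L5.

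**Figure D4:**
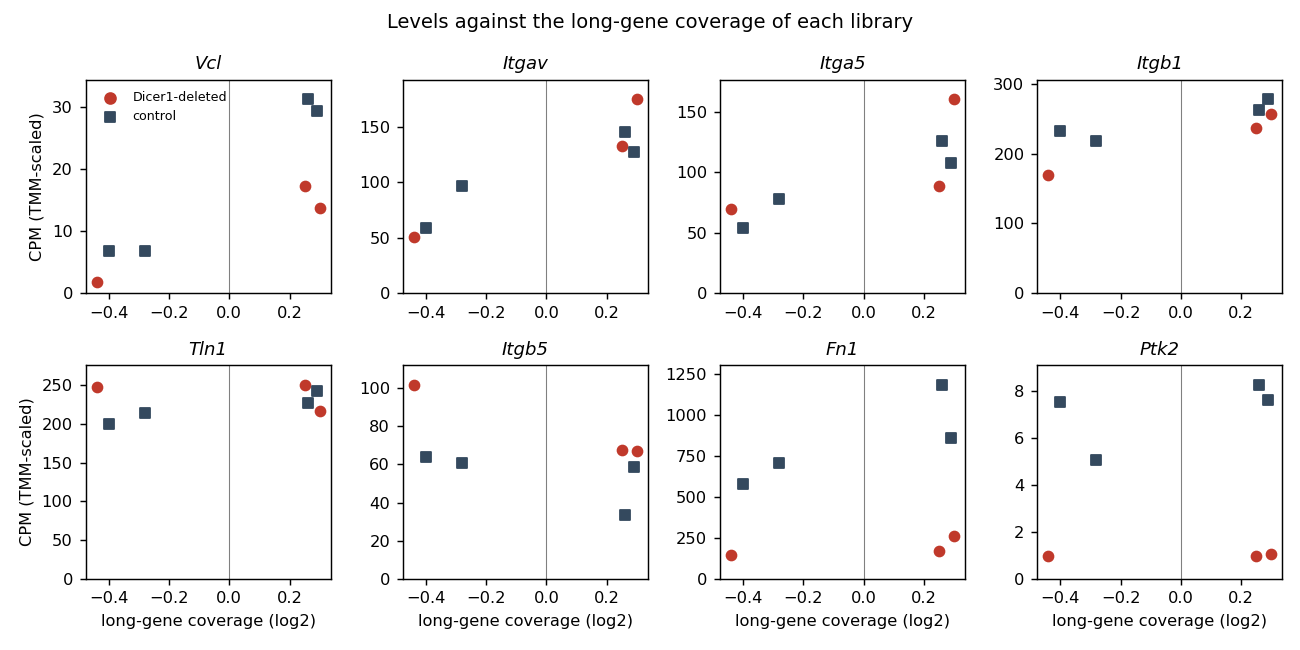
TMM-scaled CPM (y) of 8 of the genes against the long-gene coverage of the library (x, log2), Dicer1-deleted as red circles and control as dark squares. Vcl, Itgav, Itga5 and Itgb1 are higher in the 4 libraries right of 0, and Fn1 and Ptk2, picked for their difference between the genotypes, do not separate in this way.

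Several leukocyte integrin chains were higher in Dicer1-deleted libraries, though short of the edgeR threshold. Of 17 tested chains 11 had a positive log2 fold change (64.7%, against 52.6% of all genes tested). The median was 0.35 against 0.03 for all genes tested, and none passed in edgeR (lowest adjusted p 0.0766). Itgal, the alpha chain of LFA-1, had 91.2, 105.7 and 73.3 CPM in Dicer1-deleted libraries and 17.9, 14.9, 20.96 and 27.8 CPM in controls (log2 fold change 2.14 ± 0.28, SE, edgeR adjusted p = 0.0766). Itgax, the alpha chain of the myeloid integrin CD11c, had a log2 fold change of 2.19 ± 0.43 (SE), with an edgeR adjusted p of 0.150. Both rose in DESeq2, as did Itga9 and Itga8, which form receptors for tenascin, osteopontin and related ligands with Itgb1, while the collagen receptor chain Itga2 fell there. Itga9, chosen for naming after its values were seen, had 102, 105.7 and 101.5 CPM in Dicer1-deleted libraries and 26.3, 37.2, 23.0 and 46.5 CPM in controls. Itgam and Itgb2, the abundant chains of the macrophage integrin CD11b/CD18, were at -0.06 ± 0.30 and -0.25 ± 0.30 (log2 fold change ± SE).

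The wider adhesion scaffold was split. Of 32 tested activators and scaffold genes 13 had a positive (40.6%, against 52.6% of all genes tested) and 19 a negative log2 fold change. The median was -0.09, none passed in edgeR, and 6 passed in DESeq2, which called 2.5% of all genes tested. Parvg, the parvin of blood cells, averaged 25.0 ± 4.28 CPM in Dicer1-deleted (SD, n = 3) and 9.41 ± 2.94 CPM in control libraries (SD, n = 4), and Vasp, which lengthens actin filaments, 52.8 ± 5.74 CPM in Dicer1-deleted samples and 32.7 ± 2.47 CPM in controls. Both rose in DESeq2. Tns1, a tensin that binds integrin tails, averaged 9.73 ± 5.52 CPM in Dicer1-deleted samples and 32.6 ± 11.6 CPM in control samples, and the actin crosslinker Actn1 30.3 ± 2.63 CPM in Dicer1-deleted samples and 61.6 ± 18.2 CPM in controls. These 2 fell in DESeq2, together with Trip6 and Lims2, which were below 6 CPM in all libraries.

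The signalling partners of the kinases were evenly split. Of 40 tested partners 20 had a positive log2 fold change (50%, against 52.6% of all genes tested). The median was -0.01, none passed in edgeR and 2 passed in DESeq2, which called 2.5% of all genes tested. Src, the kinase that focal adhesion kinase binds, named after its values were seen, had 0.913, 1.32 and 1.15 CPM in Dicer1-deleted libraries and 8.76, 2.87, 4.70 and 3.42 CPM in controls, and fell in DESeq2. The groups did not overlap for Src. Pik3cd, the leukocyte catalytic subunit of phosphoinositide 3-kinase, and Capn2, a protease that cleaves talin, had log2 fold changes of 0.82 ± 0.25 and -0.47 ± 0.23 (SE).

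Matrix ligands other than fibronectin were mixed. Of 27 tested genes 12 had a positive log2 fold change (44.4%, against 52.6% of all genes tested). The median was -0.09, and none passed in edgeR. Mfge8, which bridges dying cells to the Itgav receptors, had 7.51, 3.56 and 11.6 CPM in Dicer1-deleted libraries and 20.3, 21.7, 31.8 and 19.9 CPM in controls. Edil3, a relative with the same kind of integrin-binding motif, had 6.39, 8.38 and 11.6 CPM in Dicer1-deleted libraries and 16.4, 20.8, 30.2 and 28.1 CPM in controls. These 2 fell in DESeq2 (adjusted p = 0.0079 and 0.00436), and in edgeR their adjusted p-values were 0.229 and 0.182. Tgfbi, a matrix protein induced by TGF-beta, averaged 3579 ± 1138 CPM in Dicer1-deleted samples and 1599 ± 732 CPM in control samples (edgeR adjusted p = 0.462). Spp1, which encodes osteopontin, was at 1941 to 3757 CPM in Dicer1-deleted samples, against 2550 to 3748 CPM in control samples.

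Genes of fibronectin assembly and turnover and its other receptors did not pass in either tool. Of 19 tested genes 10 had a positive log2 fold change (52.6%, as over all genes tested), with a median of 0.09. Tgm2, a transglutaminase that crosslinks fibronectin, averaged 253 ± 71.2 CPM in Dicer1-deleted (SD, n = 3) and 148.5 ± 18.6 CPM in control libraries (SD, n = 4), with no overlap (edgeR adjusted p = 0.443). Cd47, a receptor for thrombospondin that associates with integrins, averaged 118 ± 11.0 CPM in Dicer1-deleted samples and 93.0 ± 6.36 CPM in controls (edgeR adjusted p = 0.859). The share of non-overlapping genes, against 9.31% over all genes, was 35.3% for the other integrin chains, 25.0% for the activators and scaffold, 10% for the kinase partners, 11.1% for the matrix ligands and 10.5% for this list.

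**Figure D5:**
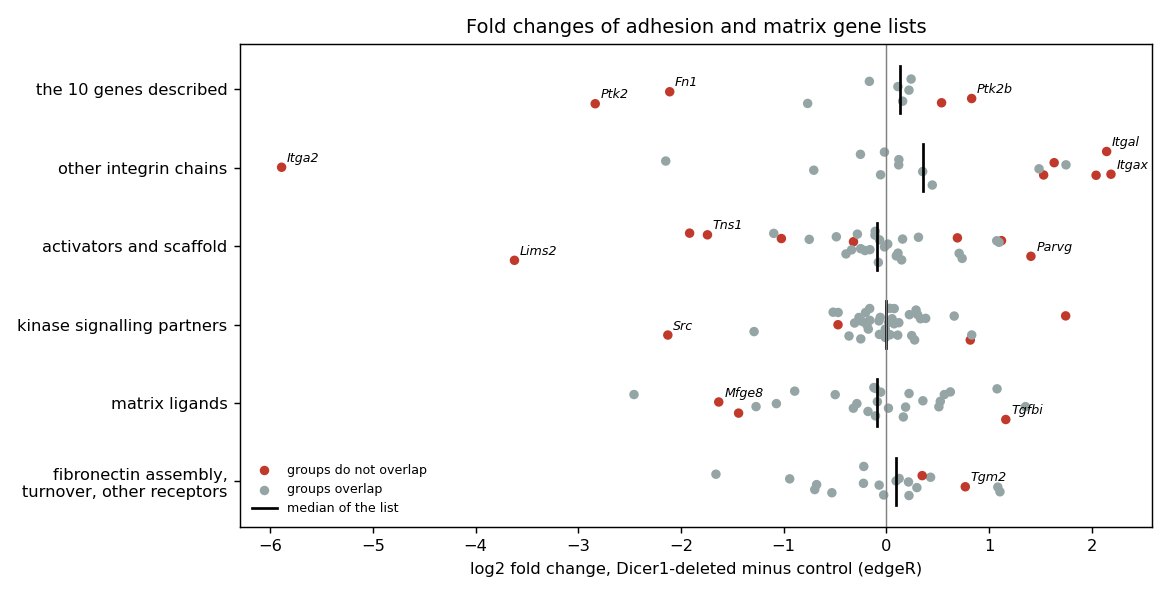
Log2 fold change, Dicer1-deleted minus control (edgeR), of every tested gene of the set and of 5 lists, 1 point per gene, red where the groups do not overlap, with black lines for medians. Medians lie between -0.09 and 0.35, and the leftmost point, Itga2, was at 0 CPM in 2 Dicer1-deleted libraries, so its position depends on the small count added in the fit.

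The genes whose profile over the 7 libraries was most like that of Ptk2, among tested genes with a mean of at least 5 CPM, were Crip2, Tppp3 and Trim2. Likeness was the root-mean-square distance between mean-centred log2(CPM + 1) profiles, which was 0.275, 0.280 and 0.288. Tppp3, a protein that binds tubulin, averaged 19.3 ± 5.198 CPM in Dicer1-deleted (SD, n = 3) and 76.0 ± 23.3 CPM in control libraries (SD, n = 4). For Fn1 the nearest were Epn2, Apbb2 and Trim2, at distances of 0.264, 0.273 and 0.343. Epn2, an epsin of clathrin-mediated uptake, averaged 1.98 ± 0.540 CPM in Dicer1-deleted samples and 9.26 ± 2.78 CPM in control samples. Trim2, a ubiquitin ligase near both profiles, had 1.41, 0.711 and 2.43 CPM in Dicer1-deleted libraries and 5.79, 11.6, 12.5 and 10.9 CPM in controls. These genes were chosen for likeness, so their differences are a description.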

How the data were processed

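Gene counts were deposited for 7 libraries, made per the labels with the SMARTer and Nextera XT kits (2 ng of RNA) and sequenced for 50 cycles per mate. Per the file headers, the authors gave unique read counts, RPKM values, and expected counts in which reads with several placements are shared out. Per the submitters' processing notes Bowtie2 was used. Not given in the sources used here were its version, the build, the annotation and the counter. Every unique count was even, so both mates were counted. The 31124 values of genes not listed in a library were set to 0. Symbols, lengths and positions are from GENCODE mouse release 21 (GRCm38), with 21798 IDs matched.

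Unique counts of 16226 genes (filterByExpr) were compared in edgeR 4.0.16 (R 4.3.3) with TMM scaling and its quasi-likelihood test, with p-values adjusted by Benjamini-Hochberg. The SE is the absolute log2 fold change divided by the square root of F. Unique reads numbered 42974524 to 51152370 per library, and the common biological coefficient of variation was 45.1%. DESeq2 1.42.0 and limma 3.58.1 served as alternatives. The same fit was also run on simulated data in which 200 genes differed, drawn with a common dispersion for all genes. Nothing reported here rests on that run.

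The genes and lists were chosen with earlier results of these data known. Named genes were the set itself, up to 4 calls and the 2 largest rises and falls without overlap per list (mean of at least 5 CPM), tested genes within 200 kb of Ptk2 and Fn1, and the 3 nearest profiles of each. Other genes were named after their values were seen, and 1 gene that the rule names is not reported here. Sequence of miR-124 was not used here. RPKM served only for the order of levels.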

Additional observations from a re-analysis of the deposited data

Results flagged for a closer look

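Among 36 genes named or described, 2 had a control library far from the other 3, where chance alone flags about 1 in 20 groups. Itgb5 was at 33.7 CPM in control replicate 3, and the nearest other control was at 58.9 CPM. Mfge8 was at 31.8 CPM in control replicate 3, and the nearest other control was at 21.7 CPM. The same library had the highest classical monocyte and dendritic cell marker sums, at 1797 and 148 CPM, whose part in these values was not tested.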

How the results depend on the processing

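Ptk2 and Fn1 were lower in Dicer1-deleted libraries under every alternative that gave a value, at log2 fold changes of -2.95 to -2.75 and -2.40 to -1.89. Both were picked for their falls in these same counts and their groups do not overlap, so the shared direction is no support for a difference. With 10 CPM required in 3 libraries Ptk2 was filtered out. The number of genes called, 4 in the analysis reported, was 42 of 23111 with no filter, 1 with the 10 CPM filter and 405 in DESeq2. With the L code as covariate in edgeR it was 0, and 1088 genes had an unadjusted p under 0.05, against 1300 in edgeR without it. The number called was 2 in limma-voom and 10 with the length trend removed. It was 0 to 3 with single libraries left out, and 0 without Dicer1-deleted replicate 1 or any control replicate, where Ptk2 had adjusted p-values of 0.225 and 0.104 to 0.147. The other integrin chains had 1 call with no filter, 5 in DESeq2 and 1 with the length trend removed, against 0. The kinase partners had 1, 2 and 1 under the same settings, the activators and scaffold 6 and the matrix ligands 2 in DESeq2. Of all genes tested, DESeq2 called 2.5%, and edgeR with the length trend removed called 0.0616%. Leaving out single libraries, Itga5 was between -0.21 and 0.45 and Itgav between -0.22 and 0.52. Itga5 and Itgav were negative without Dicer1-deleted replicate 3, and Itgav was at -0.03 without control replicate 2. The causes were not tested. The length-trend setting and the coverage split were chosen after seeing the data. No paired analysis was possible because the titles number the libraries 1 to 7 and no number is shared between groups.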
